A study of Mus musculus with 6 samples.

Results

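The inner root sheath keratins and trichohyalin were followed in dissected mouse skin with and without a targeted allele of Hoxc13. Of the 9 genes listed, chosen by name as keratins and granule protein of the sheath and its companion layer, 8 had a probe set among the 15644 named genes of the arrays. They were Krt25, Krt27, Krt71, Krt26, Krt72, Krt73, Krt75 and Tchh, and Krt28 was not analysed here. The groups were 3 wild type samples (genotype WT) and 3 samples with the genotype Hoxc13 knockout Hoxc13tm1Mrc. All 6 were labelled as skin of male C57BL/6 mice, and their titles give 5 dpn. The series' design text describes the samples of a group as independent, and the sources used here do not say whether the mutants carried 1 or 2 copies of the allele. The values are log2 RMA values, on which a difference of 1 is a 2-fold difference.

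The inner root sheath is an epithelial tube that surrounds the growing hair shaft, hardens before it and is shed in the upper follicle. From outside to inside it consists of the Henle layer, the Huxley layer and the sheath cuticle, and the companion layer joins it to the outer root sheath. Its filaments are built from pairs of a type I and a type II keratin, embedded in trichohyalin that is deiminated by PADI enzymes and cross-linked by transglutaminases. Krt25, Krt27 and Krt28 (type I) and Krt71 (type II) are made in all 3 layers, Krt26 (type I) and Krt72 and Krt73 (type II) in the sheath cuticle, and Krt75 (type II) in the companion layer. Hoxc13 encodes a homeobox factor of the hair matrix, shaft and nail. Layers were not separated in these samples, so the layer of each gene is background knowledge and was not measured.

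Both groups carried the defining markers of skin. The 6 epidermal markers (Krt1, Krt10, Lor, Flg, Krt5, Krt14) had an array mean between 13.02 and 13.19, and the 5 dermal markers between 13.28 and 13.48. The labelled sex did not match the values. Xist RNA, made from an inactive X chromosome, read 11.15 to 11.67 on the arrays labelled male, whereas 6 Y-linked probe sets read 2.98 to 4.89. The Hoxc13 probe set read 9.63, 9.81 and 9.83 in wild type replicates 1, 2 and 3, and 8.95, 8.75 and 9.74 in mutant replicates 1, 2 and 3. The third mutant array therefore lay within the wild type range, and the group means differed by -0.61 (SE 0.23, limma adjusted p = 0.293). Where the probes lie relative to the targeted disruption is not stated, so this level does not test the labels. The mean of 10 hair shaft keratins, which was 11.36 to 11.69 in wild type, read 5.87, 6.04 and 5.51 in mutant replicates 1, 2 and 3, low on each mutant array. That array also stood apart over all probe sets, with correlations of 0.9891 and 0.9901 to the other mutant arrays, which correlated with each other at 0.9972. Results are therefore given with and without the library labelled mutant replicate 3.

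The clearest change among the sheath genes was a fall of 2 of the 3 sheath cuticle keratins, Krt26 and Krt72, while no other member was called. These 2 of 8 measured members passed in the lower direction, where 1.60% of all probe sets did, and 0 passed in the higher direction, where 0.478% did. The median difference over the 8 members was -0.22, against 0.0247 over all 16331 probe sets. Without mutant replicate 3, 5 members were lower (Krt26, Krt72, Krt27, Krt75 and Tchh) and 0 higher, where 6.23% and 7.95% of all probe sets were called, and the median was -0.36. Whole skin was measured, so fewer sheath cells and less RNA per cell cannot be told apart.

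**Figure D1:**
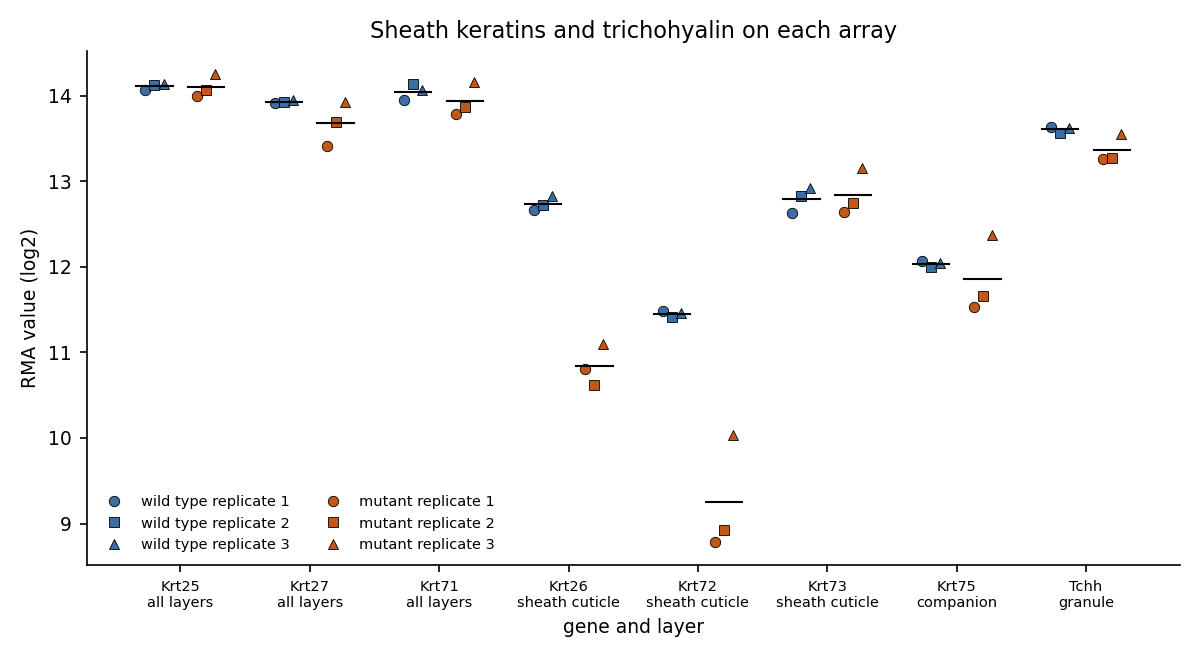
RMA values (log2, vertical axis) of the 8 measured sheath genes on each array, with wild type in blue, mutant in orange, a marker shape for each replicate number and a line at the group mean. The mutant arrays lie between 10.62 and 11.10 for Krt26 and between 8.79 and 10.04 for Krt72, below all wild type arrays, whereas Krt25, Krt71 and Krt73 overlap between the groups.

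Krt26 (Entrez gene 320864), the type I keratin of the sheath cuticle, read 12.66, 12.72 and 12.83 in wild type replicates 1, 2 and 3. In mutant replicates 1, 2 and 3 it read 10.80, 10.62 and 11.10. The groups were far apart, and the third mutant array stood 0.39 above the mean of the other mutant arrays. The mean went from 12.74 ± 0.09 to 10.84 ± 0.24 (SD, n = 3 each), a fall of 3.73-fold (log2 difference -1.90, SE 0.12, limma adjusted p = 0.000172). Without mutant replicate 3 the difference was -2.03 (adjusted p = 7.71e-06). With any 1 array left out it lay between -2.03 and -1.79, and the call was kept (adjusted p from 7.71e-06 to 0.00246).

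Krt72 (Entrez gene 105866), a type II keratin of the same layer, read 11.48, 11.41 and 11.46 in wild type replicates 1, 2 and 3. In mutant replicates 1, 2 and 3 it read 8.79, 8.92 and 10.04. All mutant arrays were below the wild type arrays, but the third array stood 1.18 above the mean of the other mutant arrays, the widest such gap of the 8 members. The mean went from 11.45 ± 0.04 to 9.25 ± 0.68 (SD, n = 3 each), a fall of 4.61-fold (log2 difference -2.20, SE 0.30, limma adjusted p = 0.0106). With that array left out it was 6.05-fold lower (log2 difference -2.60, adjusted p = 5.23e-07). Leaving out wild type replicate 1, 2 or 3 (adjusted p = 0.0671, 0.0595 and 0.0631) or mutant replicate 2 (adjusted p = 0.0509) ended the call, with differences of -2.22 to -2.04 in these fits.

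Krt73 (Entrez gene 223915), the other type II keratin of the sheath cuticle, did not follow. It read 12.63, 12.83 and 12.92 in wild type replicates 1, 2 and 3, and 12.64, 12.74 and 13.15 in mutant replicates 1, 2 and 3. The groups overlapped and the highest value was that of the third mutant array. The difference of 0.05 (SE 0.14, limma adjusted p = 0.922) had a 95% interval from -0.29 to 0.38. Without mutant replicate 3 it was -0.11, and its interval of -0.33 to 0.12 did not reach the changes of Krt26 and Krt72.

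The keratins made in all 3 layers were among the brightest probe sets of the arrays. Krt25 (Entrez gene 70810), whose mutation underlies the wavy Rex coat, read 14.06, 14.12 and 14.14 in wild type replicates 1, 2 and 3. In mutant replicates 1, 2 and 3 it read 13.99, 14.06 and 14.25, so the groups overlapped. The difference was -0.01 (SE 0.09, 95% interval -0.20 to 0.19, limma adjusted p = 0.989). Krt71 (Entrez gene 56735), the type II keratin mutated in Caracul mice, read 13.95, 14.13 and 14.06 in wild type and 13.78, 13.87 and 14.16 in mutant replicates 1, 2 and 3. It had the lowest values in the first and second mutant arrays and the highest in mutant replicate 3. Its difference was -0.11 (SE 0.11, 95% interval -0.37 to 0.15, limma adjusted p = 0.705), and -0.22 without mutant replicate 3 (adjusted p = 0.113).

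Krt27 (Entrez gene 16675), the remaining type I keratin of all layers, read 13.91, 13.93 and 13.95 in wild type replicates 1, 2 and 3. In mutant replicates 1, 2 and 3 it read 13.41, 13.69 and 13.93. The first mutant array was the lowest and the third lay inside the wild type range. The difference was -0.25 (SE 0.12, 95% interval -0.54 to 0.04, limma adjusted p = 0.41), and without mutant replicate 3 it was -0.38 (adjusted p = 0.034). On a given array the probe set of Krt25 ranked between 2 and 7 of 16331, that of Krt71 between 4 and 13 and that of Krt27 between 9 and 31, where the highest value of the table was 14.381. Krt26 ranked between 78 and 968 and Krt72 between 402 and 4345. The part that the top of the scale plays in the small differences of the brightest probe sets was not tested.

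Krt75 (Entrez gene 109052), the companion layer keratin, read 12.07, 12.00 and 12.04 in wild type replicates 1, 2 and 3. In mutant replicates 1, 2 and 3 it read 11.53, 11.66 and 12.37. The first and second mutant arrays were below all wild type arrays and the third above them. The difference was -0.18 (SE 0.20, 95% interval -0.65 to 0.28, limma adjusted p = 0.728), and without mutant replicate 3 it was -0.44 (adjusted p = 0.0083).

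Tchh (Entrez gene 99681), trichohyalin, read 13.63, 13.56 and 13.62 in wild type replicates 1, 2 and 3, and 13.26, 13.27 and 13.55 in mutant replicates 1, 2 and 3. The groups did not overlap, although mutant replicate 3 came within 0.02 of the lowest wild type value. The difference of -0.25 (SE 0.09, 95% interval -0.47 to -0.03) did not pass after adjustment (limma adjusted p = 0.292). With that array left out it was -0.34 (adjusted p = 0.0155). Krt26, Krt72 and Tchh were the 3 members of 8 whose groups did not overlap, each lower in mutant skin, where 7.82% of all probe sets had lower mutant values without overlap.

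**Figure D2:**
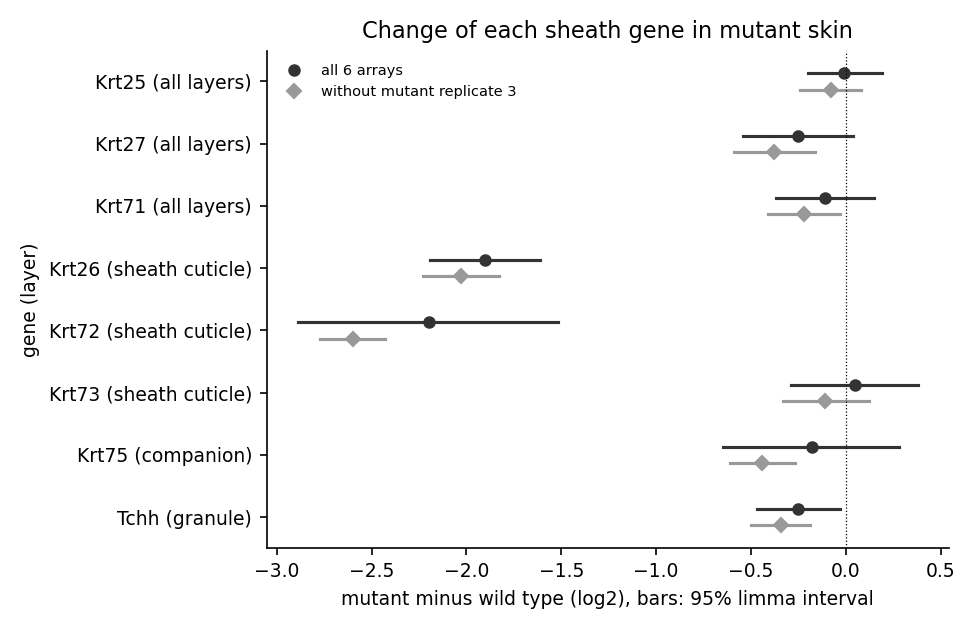
Mutant minus wild type difference (log2, horizontal axis) of each measured sheath gene with its 95% limma interval, from all 6 arrays (black) and without mutant replicate 3 (grey). Krt26 and Krt72 lie at -1.90 and -2.20 with all arrays, and at -2.03 and -2.60 without mutant replicate 3. The other members lie between -0.44 and 0.05 in both fits.

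Unequal change of the sheath keratins was examined as a difference between 2 probe sets on the same array, which cancels any scale factor of the array. The absolute size of such a difference depends on the probes, so its change between groups is the measurement. Krt26 minus Krt25, cuticle against all layers within type I, was -1.40, -1.39 and -1.30 in wild type replicates 1, 2 and 3. In mutant replicates 1, 2 and 3 it was -3.19, -3.45 and -3.15, all lower than in wild type and close together, the third array included. The change was -1.90, and -1.95 without mutant replicate 3. Krt72 minus Krt71, the same comparison within type II, was -2.46, -2.72 and -2.60 in wild type and -4.99, -4.96 and -4.12 in mutant replicates 1, 2 and 3. The change was -2.09, and -2.38 without mutant replicate 3. Krt73 minus Krt71 was -1.31, -1.30 and -1.14 in wild type and -1.13, -1.13 and -1.01 in mutant replicates 1, 2 and 3, and moved by 0.16 the other way. An exact two-sided permutation test over the 20 arrangements of the arrays gave p = 0.1 for each of the 3 pairs (0.1 after Benjamini-Hochberg adjustment over them), the smallest p that 3 against 3 arrays allow.

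**Figure D3:**
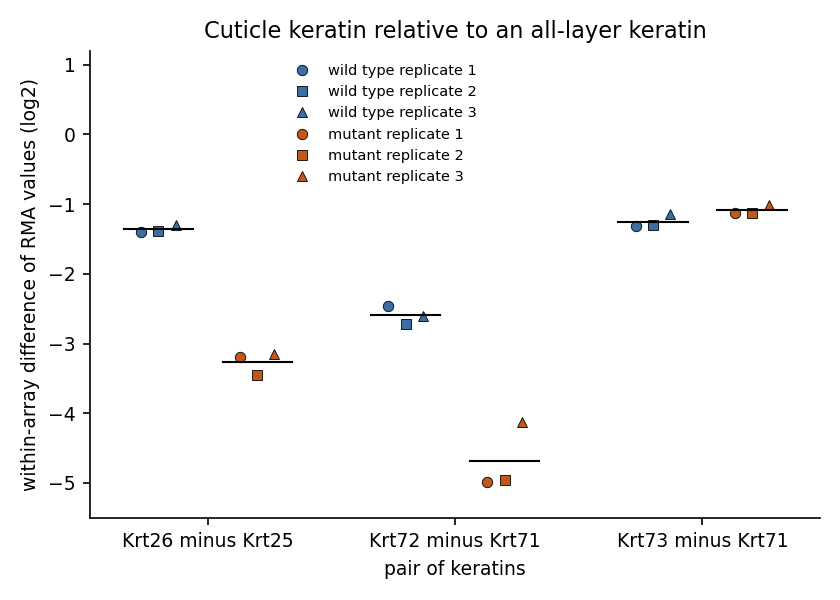
Within-array difference of RMA values (log2, vertical axis) for 3 pairs of sheath keratins, with a point for each array and a line at each group mean. The mutant arrays lie at -3.45 to -3.15 for Krt26 minus Krt25, against -1.40 to -1.30 in wild type, and the Krt73 minus Krt71 values of the groups differ by 0.16 on average.

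Krt26 and Krt72 lie in separate keratin gene clusters, on chromosomes 11 and 15, next to sheath keratin genes whose probe sets did not pass. In the RefSeq gene order of GRCm38.p6, Krt26 sits between Krt25 (-0.01) and Krt27 (-0.25). Krt72 sits between Krt74, a transcribed pseudogene not analysed here, and Krt73 (0.05). The 250 bases before the annotated start of Krt26 and its neighbour Krt25, and of Krt72, its neighbour Krt73 and the nearby Krt71, are shown 5′ to 3′ because these adjacent genes differed in their change. They are RefSeq sequences of GRCm38.p6, all on the minus strand: Krt26 chr11:99337966-99338215, Krt25 chr11:99322952-99323201, Krt72 chr15:101786521-101786770, Krt73 chr15:101802361-101802610 and Krt71 chr15:101743098-101743347. Capitals mark matches to an 8-base consensus known for HOXC13 at hair keratin promoters, searched on both strands in its 8 forms TTAATNAA, TTAATNAG, TTAATNGA, TTAATNGG, TTTATNAA, TTTATNAG, TTTATNGA and TTTATNGG.
Krt26: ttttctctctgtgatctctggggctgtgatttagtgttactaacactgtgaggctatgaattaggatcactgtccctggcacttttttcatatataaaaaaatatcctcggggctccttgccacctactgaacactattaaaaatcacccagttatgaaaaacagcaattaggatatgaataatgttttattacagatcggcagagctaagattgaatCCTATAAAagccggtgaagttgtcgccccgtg
Krt25: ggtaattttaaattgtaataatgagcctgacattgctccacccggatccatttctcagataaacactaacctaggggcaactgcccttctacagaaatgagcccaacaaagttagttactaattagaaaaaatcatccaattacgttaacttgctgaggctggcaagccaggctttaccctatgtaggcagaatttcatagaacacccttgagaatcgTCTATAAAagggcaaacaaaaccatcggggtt
Krt72: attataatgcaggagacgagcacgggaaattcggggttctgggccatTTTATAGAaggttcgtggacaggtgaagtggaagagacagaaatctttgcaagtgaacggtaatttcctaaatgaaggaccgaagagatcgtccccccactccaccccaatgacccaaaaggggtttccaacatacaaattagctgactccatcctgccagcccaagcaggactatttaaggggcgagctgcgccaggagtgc
Krt73: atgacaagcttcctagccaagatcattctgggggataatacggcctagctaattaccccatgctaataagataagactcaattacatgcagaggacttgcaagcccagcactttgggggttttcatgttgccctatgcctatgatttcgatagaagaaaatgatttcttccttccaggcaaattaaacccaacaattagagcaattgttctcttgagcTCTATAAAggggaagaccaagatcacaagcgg
Krt71: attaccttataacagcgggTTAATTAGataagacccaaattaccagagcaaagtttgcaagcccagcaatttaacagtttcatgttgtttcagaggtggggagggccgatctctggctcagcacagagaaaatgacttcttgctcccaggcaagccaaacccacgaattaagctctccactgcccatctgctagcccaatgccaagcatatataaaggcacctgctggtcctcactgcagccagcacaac

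Over the 9 listed genes, 6 windows held a match: 1 in each of the 5 shown and 3 in that of Krt75, with 0 in those of Krt27, Krt28 and Tchh. Of the 32851 RefSeq promoter windows of that length, 17.2% held at least 1. In Krt26, Krt25 and Krt73 the match began 32 bases before the start and contained the letters TATAAA of a TATA box, with which the reverse of several forms overlaps. In Krt72 it began 203 bases and in Krt71 231 bases before the start. TATAAA on the gene's own strand was present in 6 of the 9 listed genes' windows (Krt25, Krt26, Krt27, Krt28, Krt71 and Krt73) and in 7.6% of all windows. A match to the consensus was thus found both in genes that fell and in genes that were not called, and the matches describe the letters of these windows alone.

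Among 5 other measured structural genes of the sheath and companion layer, none was called. The smallest p belonged to Tchhl1, a relative of trichohyalin. It read 11.95, 11.69 and 11.94 in wild type and 9.83, 10.32 and 11.31 in mutant replicates 1, 2 and 3, without overlap and with the third mutant array nearest to wild type. The difference was -1.37 (SE 0.33, limma adjusted p = 0.104), and -1.78 without mutant replicate 3 (adjusted p = 0.000374), when it was the 1 gene of the 5 that was called. In that fit 6.23% of all probe sets were called lower. Median differences of the list were -0.13 with all arrays and -0.30 without mutant replicate 3. Krt6a and Krt17, keratins of the companion layer and outer root sheath, had their highest values in mutant replicate 3, at 12.23 and 13.07 against wild type ranges of 10.97 to 11.03 and 12.29 to 12.53. Krt6b, another keratin of the list, went the other way. Its lowest value was that of mutant replicate 3, at 5.89 against a wild type range of 6.11 to 7.53.

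Of 12 genes for cross-linking enzymes, deiminases and envelope proteins, 1 fell and none rose with all arrays. Over all probe sets 1.60% fell and 0.478% rose. Tgm3, the transglutaminase that cross-links trichohyalin and keratin in the follicle, read 9.04, 9.03 and 9.14 in wild type replicates 1, 2 and 3. It read 7.49, 7.54 and 7.89 in mutant replicates 1, 2 and 3, well below wild type on each array. The difference was -1.43 (SE 0.11, limma adjusted p = 0.0006), and -1.56 without mutant replicate 3. The list median was -0.19.

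Most of the other cross-linking genes split the mutant arrays. For 8 of the 12, mutant replicates 1 and 2 lay below all wild type arrays while mutant replicate 3 lay above all of them, a pattern held by 7.01% of all probe sets. Padi3, a deiminase that acts on trichohyalin, read 11.99, 12.29 and 12.21 in wild type and 11.24, 11.59 and 12.66 in mutant replicates 1, 2 and 3. Padi1, another deiminase, read 9.49, 9.42 and 9.30 in wild type and 8.16, 8.18 and 9.58 in mutant replicates 1, 2 and 3. Their differences of -0.33 and -0.76 did not pass (limma adjusted p = 0.694 and 0.376), and without mutant replicate 3 they were -0.75 and -1.23 (adjusted p = 0.00893 and 8.24e-05). In that fit 8 of the 12 were called lower and 2 higher, against 6.23% and 7.95% of all probe sets (list median -0.45). The 2 called higher were Tgm5 (0.37) and Scel (0.29), neither of which passed with all arrays (limma adjusted p = 0.112 and 0.0915).

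Among 13 regulators of sheath and matrix differentiation, Foxn1 fell, as 1.60% of all probe sets did, and the other 12 did not pass. Foxn1, a transcription factor of hair shaft keratinization, read 8.22, 8.01 and 8.08 in wild type and 6.80, 6.80 and 7.07 in mutant replicates 1, 2 and 3. The difference was -1.21 (SE 0.10, limma adjusted p = 0.000878). Gata3, a zinc finger factor required for the inner root sheath lineage, read 10.25, 10.33 and 10.34 in wild type and 10.24, 10.25 and 10.64 in mutant replicates 1, 2 and 3. Its difference was 0.07 (SE 0.12, 95% interval -0.20 to 0.34, limma adjusted p = 0.829), and -0.06 without mutant replicate 3. The list median was -0.098. Without mutant replicate 3, 6 regulators were lower and 1 higher, where 6.23% and 7.95% of all probe sets were called. For Tgm3 and Foxn1, as for Krt26, Krt72, Tchh, Tchhl1 and Msx2, every mutant array lay below all wild type arrays. No other member or gene of the sheath lists did so. Of all probe sets, 7.82% had lower mutant values without overlap.

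**Figure D4:**
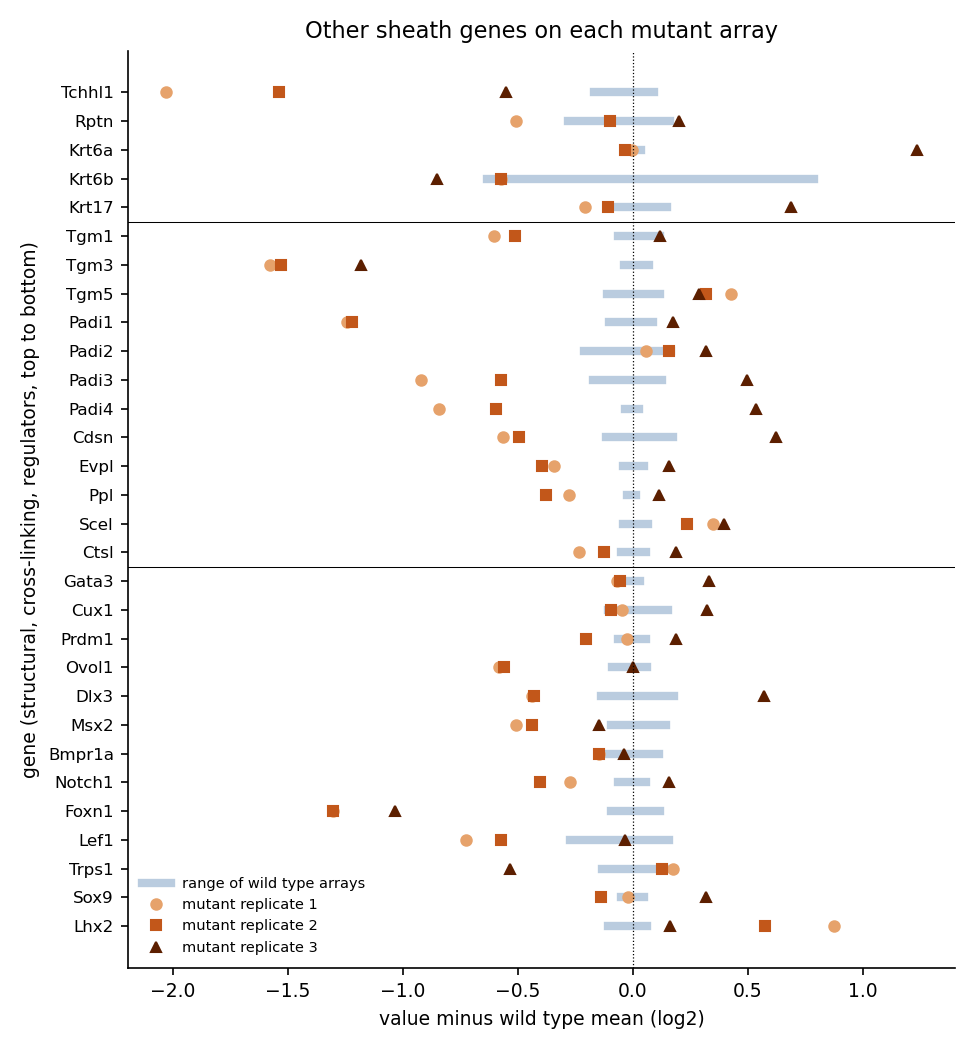
Value on each mutant array minus the wild type mean (log2, horizontal axis) for 30 other sheath-related genes in 3 blocks, with the range of the wild type arrays as a blue bar. Tgm3 and Foxn1 are low on every mutant array, while Padi1, Padi3, Padi4, Cdsn and Dlx3 are low in mutant replicates 1 and 2 and above wild type in mutant replicate 3.

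Mutant replicate 3 read above the mean of the other mutant arrays for 8 of 8 sheath members, by 0.22 (Krt25) to 1.18 (Krt72), and for 53.8% of all probe sets. This was not particular to the members. It held for 11 of 12 cross-linking genes, 11 of 13 regulators, 7 of 7 pigment cell markers and 3 of 3 sebaceous markers. By contrast it held for 1 of 6 immune markers and 0 of 8 skeletal muscle markers. All 10 measured hair shaft keratins fell, where 1.60% of all probe sets did, with a median log2 difference of -6.28. In mutant skin the array means of these keratins were 5.51 to 6.04, below the median level of 7.405, where the lowest value was 2.981. RMA compresses differences near background, and how far it did so for these keratins was not tested. Neither the order of the mutant arrays nor the size of these falls was compared with the sheath genes. Of 19 measured epidermal, outer root sheath and simple epithelial keratins, 1 rose (Krt79, 0.54) and 18 did not pass, with a median of 0.0293. Of all probe sets 0.478% rose. Without mutant replicate 3, 4 of the 19 were lower and 2 higher, where 6.23% and 7.95% of all probe sets were called.

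Marker lists of other cells also differed between the arrays, not all in the direction of the sheath genes. The mean of 7 pigment cell markers was 10.58 to 10.76 in wild type and 10.14, 9.96 and 10.58 in mutant replicates 1, 2 and 3, and that of 3 sebaceous markers 9.90 to 10.06 against 9.02, 9.27 and 10.00. The mean of 8 skeletal muscle markers ranged from 10.62 to 11.94 in wild type and was 12.51, 11.91 and 11.29 in mutant replicates 1, 2 and 3. Means were 8.69 to 8.74 against 8.79 to 9.27 for 6 immune markers, 10.90 to 11.28 against 10.67 to 11.15 for 4 fat cell markers and 9.60 to 9.66 against 9.45 to 9.80 for 4 cell division markers. None of these markers was called by limma with all arrays, and none read below 6.46. Without mutant replicate 3, 6 of 7 pigment, 2 of 3 sebaceous and 1 of 6 immune markers were called lower. Called higher in that fit were 3 of 8 muscle, 2 of 6 immune and 1 of 4 fat cell markers. Over all probe sets 6.23% were called lower and 7.95% higher. The part of these markers in the sheath values was not tested.

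The genes whose values were most like those of Krt72 over the 6 arrays were sought among 15636 named genes outside the members. By Pearson correlation they were Crym (0.999), Ly6g6g (0.999), Tmprss11e (0.998), Cyria (0.998) and Wdr43 (0.997). Crym, which encodes the thyroid hormone binding protein mu-crystallin, read 12.10, 11.99 and 12.05 in wild type and 9.66, 9.89 and 10.84 in mutant replicates 1, 2 and 3. Ly6g6g, of the Ly6 family, read 11.22, 11.27 and 11.32 in wild type and 7.81, 8.08 and 9.31 in mutant replicates 1, 2 and 3. As for Krt72, mutant replicate 3 was intermediate for both. The differences of Crym, Ly6g6g, Tmprss11e and Cyria were -1.92, -2.87, -1.74 and -1.62, and that of Wdr43 was -0.09. These genes were picked by their likeness to Krt72, which itself fell, so their falls are no separate evidence. For Krt71 the most alike were Minpp1 (0.996), Sptlc2 (0.993), Sh3d19, Mknk2 and Hipk3 (0.991 each), with differences of -0.34 (Hipk3) to -0.06 (Sh3d19). These correlations describe 6 arrays in 2 groups, which share the group difference and the array that stood apart.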

How the data were processed

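Total RNA of dissected skin was amplified from an oligo(dT) primer, biotin-labelled and run on Affymetrix arrays, per the labels' protocols. The authors deposited log2 values made with RMA, per the submitters' processing notes, with 1 probe set per Entrez gene. RMA forces the arrays to a common distribution and compresses differences near background. The array annotation and build are not given in the sources used here. Probe sets were named through the platform annotation, and no detection calls were used.

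Of 16395 probe sets, 64 controls were left out and 16331 were tested with limma 3.58.1 in R 4.3.3 (lmFit, eBayes, two-sided, no block), with Benjamini-Hochberg adjustment over all of them at 0.05. The fit was tested on simulated data with the same spread on every array, which does not cover an array that stands apart. Precision is limited by the number of arrays (3 per group), and the p-values reflect only the spread among these samples. Within-array differences were tested by exact permutation with scipy 1.17.1. Figures were drawn with matplotlib 3.10.9.

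The members and lists were chosen with earlier results of these data known. Named were the members, Hoxc13, called genes of the 3 sheath lists (the smallest p where none was called), keratin genes next to Krt26 and Krt72 and the 5 genes most like Krt71 and Krt72. Krt6a, Krt6b, Krt17, Padi1, Padi3, Padi4, Cdsn, Tgm5, Scel, Dlx3, Msx2, Gata3 and Krt79, where named with values, were chosen after their values were seen. Alternatives were a filter on the lowest 25% of mean levels, repeated quantile normalisation, centring, a robust prior with an intensity trend, array weights, no moderation, the replicate number as a block and leaving out each array.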

Additional observations from a re-analysis of the deposited data

How the results depend on the processing

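Krt26 kept its direction and call under all 13 alternatives run, and Krt72 kept its direction in all 13 and its call in 8. The count of called members was 2, was 3 with array weights (Tchh added, -0.32), 1 without variance moderation, and 1 to 5 when single arrays were left out, highest without mutant replicate 3. The count over all probe sets was 339, against 1880 with array weights (weight 0.234 for mutant replicate 3, 1.23 to 1.44 for the others), 84 without variance moderation and 151 to 2316 when single arrays were left out. The cause was not tested. Samples share only a replicate number: deviations of same-numbered samples correlated at 0.036, -0.119 and -0.0873. With the replicate block 197 probe sets were called, Krt26 and Krt72 among them. Differences that changed sign were small. That of Krt25 was 0.016 after repeated quantile normalisation and -0.079 to 0.05 when single arrays were left out, and that of Krt73 was -0.073 with array weights and -0.11 to 0.15 when single arrays were left out. The 3 within-array differences kept their direction in each of their 8 alternatives, at -1.95 to -1.80, -2.38 to -1.94 and 0.12 to 0.21 when single arrays were left out. With 3 arrays per group a small change of the brightest keratins cannot be separated from none.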
